A study of Mus musculus with 7 samples.

Results

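Interferon-stimulated genes were followed in the hearts of dystrophic mice with and without IKKβ in cardiomyocytes. Interferons are secreted when a cell senses foreign or misplaced nucleic acid or when lymphocytes are activated. They bind receptors that signal through JAK kinases and STAT factors. Type I interferons act mainly through Stat2 and Irf9, in a complex that binds the interferon-stimulated response element (ISRE) in target promoters, and interferon-γ acts mainly at the gamma-activated site (GAS). The induced genes encode nucleic acid sensors, antiviral effectors, GTPases that attack intracellular microbes, and chemokines that attract T cells. NF-κB, which IKKβ activates, takes part in inducing some of them, among them the chemokine gene Cxcl10.

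The genes were 39 known interferon-stimulated genes, each represented by the probe set that names it alone in the platform annotation and has the highest mean over the 7 arrays. This gave 37 genes of 18193 on the array. Ifi44 and Isg15 had no such probe set and were not analysed here. Total RNA from whole hearts was hybridized to Affymetrix Mouse Genome arrays, with 1 heart per array, and each value is a log2 expression level. All 7 mice were mdx males at 7 months of age, which lack dystrophin and model Duchenne muscular dystrophy. In 4 of them the Myh6 promoter, active in cardiomyocytes, drove Cre recombinase and floxed IKKβ was deleted (mdx HRTΔIKKβ). As controls, 3 littermates carried the floxed alleles, with no Cre listed (mdx IKKβf/f). Fibroblasts, vessels and leukocytes of both groups keep IKKβ, and a whole heart holds all of these, so that fewer cells of a type and less RNA per cell cannot be told apart. Each difference below is a log2 value, negative where the deleted hearts were lower. Its error is the standard error from limma, fitted over all 45037 probe sets.

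The hearts were compared first in overall quality. Array medians ran from 6.73 to 6.75. The cardiomyocyte markers were among the brightest probe sets in these hearts, with Ryr2 the dimmest of 10 at a mean of 13.31. Ikbkb, which encodes IKKβ, averaged 8.72 ± 0.19 (SD, n = 4) after deletion and 8.90 ± 0.11 (SD, n = 3) in controls, and did not pass the test (limma, adjusted p = 0.801). It is not known here whether its probes bind the exons that Cre removes. These values come from 1 of 5 Ikbkb probe sets, and the others are not given here. By qPCR on whole hearts, the study reported lower Ikbkb expression in mdx HRTΔIKKβ mice. Some hearts stood apart in markers of other tissues or cells. A list score is the mean over genes of the log2 value minus that gene's mean over the 7 hearts. The skeletal muscle score was 3.48 in mdx IKKβf/f replicate 1 and between -1.17 and 0.61 in the others. The neutrophil score was 2.30 in that heart and 2.72 in mdx HRTΔIKKβ replicate 2, against -1.21 to -0.70 elsewhere. The latter heart also had the highest B and plasma cell (2.08) and lung (2.52) scores. mdx IKKβf/f replicate 2 had the lowest atrial score, -1.57 against -0.24 to 0.94 elsewhere, and the lowest value in 9 of 13 macrophage markers. The T cell gene Cd8b1 stood at 7.95 in mdx HRTΔIKKβ replicate 1 and between 4.82 and 5.16 in the other 6 hearts.

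The interferon-stimulated genes differed in both directions between the genotypes, mostly by small amounts. None of the 37 passed limma's adjusted threshold, and neither did any probe set on the array (0.0% of 45037). Of the 37, 24 had a lower mean in mdx HRTΔIKKβ hearts, where 52.3% of all genes did, and 13 had a higher one. Their median difference was -0.04, beside -0.01 over all genes. At an unadjusted p of 0.05, 3 members were lower (Ifit2, Cxcl9 and Mx2), against 2.95% of all genes, and 1 was higher (Oasl2), against 3.25%. Cxcl9 alone was at least 1.5-fold lower (0.313% of all genes) and no member was 1.5-fold higher (1.14%). The values of the groups did not overlap in Ifit2 and Cxcl9, both lower (2.62% of all genes), and in no member that was higher (3.05%). For 28 of the 37 (75.7%) the 95% interval of the difference lay within 1.5-fold in either direction, as it did for 91.0% of all genes. The 9 with wider intervals were Eif2ak2, Ifit2, Ifit3, Oasl2, Rsad2, Isg20, Gbp3, Iigp1 and Cxcl9.

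**Figure D1:**
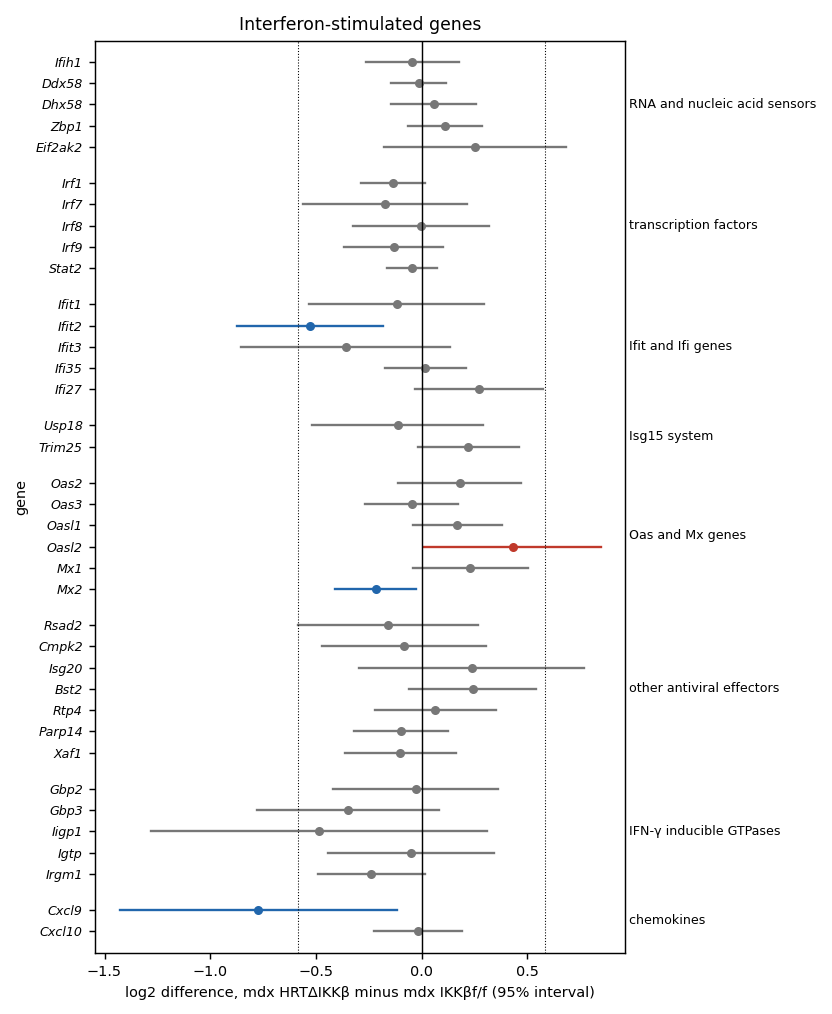
Difference in mean log2 value, deleted minus control hearts (x axis), for 37 interferon-stimulated genes (y axis) grouped by role, with 95% intervals from limma. Blue marks Ifit2, Cxcl9 and Mx2 (lower) and red Oasl2 (higher) at an unadjusted p of 0.05, and dotted lines mark a 1.5-fold difference.

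The direction over the members depended on single hearts, most of all on 1 control heart. mdx IKKβf/f replicate 1 alone had the highest value in 14 of the 37 genes (37.8%), whereas it was highest in 9.72% of all genes. Without it 23 of the 37 means were higher after deletion and the median difference was 0.02. No other left-out heart turned the sign of the median, but without mdx HRTΔIKKβ replicate 1 higher and lower means were nearly equal in number. The count of members lower at an unadjusted p of 0.05 was 1 without mdx IKKβf/f replicate 1 and likewise 1 without mdx HRTΔIKKβ replicate 1 or 2, and 6 without mdx HRTΔIKKβ replicate 4 or without mdx IKKβf/f replicate 3. Among mdx HRTΔIKKβ hearts, replicate 4 was highest in 9 members (24.3%, beside 10.6% of all genes) and lowest in none. Replicate 1 was lowest in 11 (29.7%, beside 16.4%). The score of the 37 genes was -0.14, -0.07, 0.01 and 0.11 in mdx HRTΔIKKβ replicates 1 to 4, and 0.21, -0.04 and -0.09 in mdx IKKβf/f replicates 1 to 3. The groups overlapped, with the lowest heart among the deleted and the highest among the controls. Members also varied more between hearts of 1 genotype than genes in general did. Their median SD was 0.172 in mdx HRTΔIKKβ and 0.174 in mdx IKKβf/f hearts, and over all genes 0.107 and 0.0862. This was not particular to the members. It was 0.146 and 0.116 over 50 other interferon-stimulated genes, and 0.227 and 0.210 over 13 macrophage and monocyte markers. Of the 37, 29 were at least as bright as the median probe set, and genes were not matched for brightness.

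**Figure D2:**
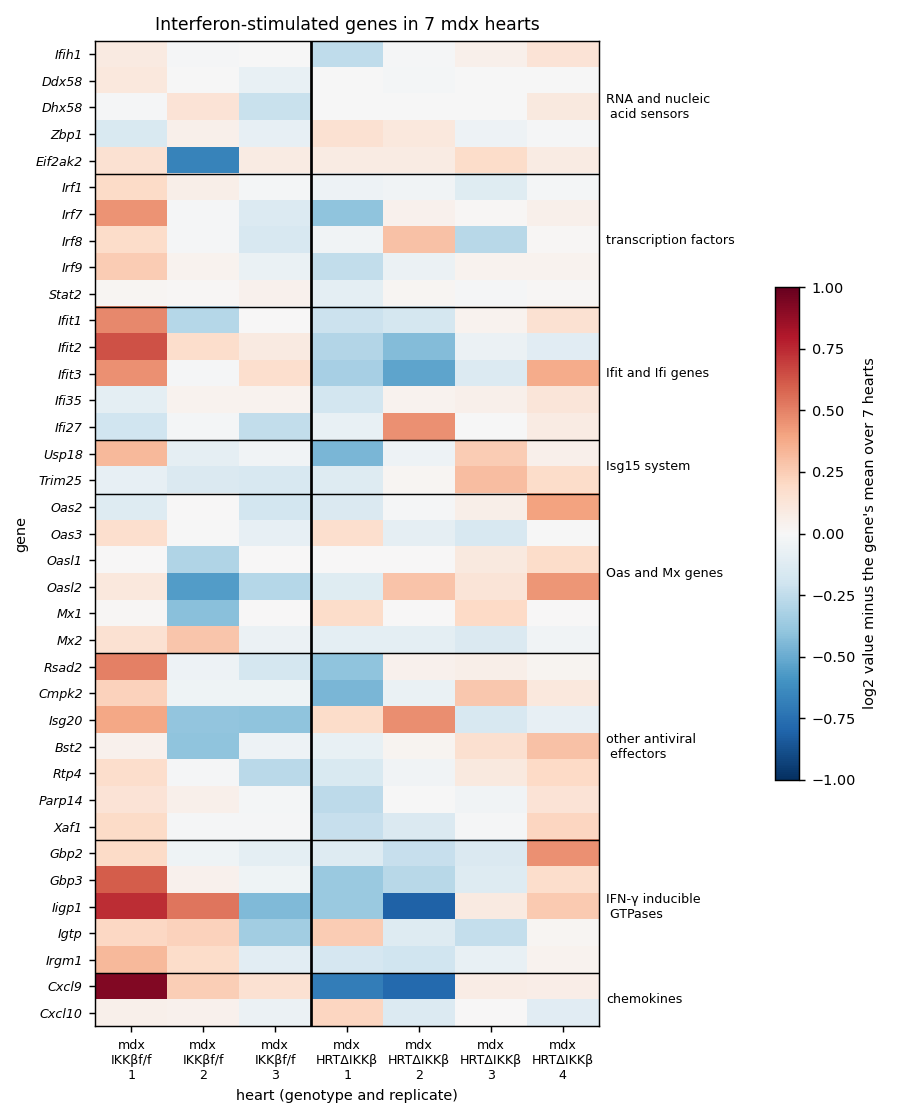
Log2 value minus the gene's mean over 7 hearts (colour) for the 37 genes (rows, by role) in the 3 control and 4 deleted hearts (columns, numbered by replicate). mdx IKKβf/f replicate 1 is alone the highest heart in 14 rows.

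Promoters of the members were read to see which letters they share, as the ISRE and GAS are the sites through which interferons act. RefSeq promoters (GRCm38.p6, 250 bases before to 50 after the start) were found for 29 of the 39 genes. The ISRE core, GAAANNGAAA or TTTCNNTTTC on the other strand, stood in 15 of the 29 (51.7%), and in 3.99% of the 27025 genes with a promoter. The GAS core, TTCNNNGAA, which reads alike on both strands, stood in 8 of 29 (27.6%), beside 9.55%. A κB motif, GGGNNTTTCC or GGAAANNCCC, stood in 0 of 29, beside 1.89%. Only these letters were searched, so κB sites with other letters or outside these windows were not counted. The 0 does not show that the genes lack κB sites. Eif2ak2, Bst2 and Igtp held both an ISRE and a GAS core. Of the 14 measured genes with an ISRE core, 12 had a lower mean after deletion, as did 8 of the 13 measured genes whose promoter held none. With mdx IKKβf/f replicate 1 left out these counts were 5 of 14 and 6 of 13. For the GAS core 4 of 8 genes with it and 16 of 19 without it had a lower mean, and 3 of 8 and 8 of 19 when that heart was left out. The following stretches lie before the start and run 5′ to 3′ on the strand of the gene, with the matched letters in capitals. Among the 5 shown for the ISRE core, Bst2 had a higher mean after deletion and the other 4 a lower one. Irf1 and Ifit2, shown for the GAS core, both had a lower one.
Ifit3 (ISRE, chr19:34583358-34583431, + strand): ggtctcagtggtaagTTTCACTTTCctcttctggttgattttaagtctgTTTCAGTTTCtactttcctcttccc
Rsad2 (ISRE, chr12:26456548-26456587, - strand): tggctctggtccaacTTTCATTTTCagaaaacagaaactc
Gbp3 (ISRE, chr3:142559984-142560029, + strand): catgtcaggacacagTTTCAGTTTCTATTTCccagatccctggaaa
Irgm1 (ISRE, chr11:48871421-48871465, - strand): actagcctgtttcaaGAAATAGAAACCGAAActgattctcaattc
Bst2 (ISRE, chr8:71537572-71537617, - strand): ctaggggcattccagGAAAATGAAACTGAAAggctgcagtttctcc
Irf1 (GAS, chr11:53769909-53769947, + strand): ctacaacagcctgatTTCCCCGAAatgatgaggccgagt
Ifit2 (GAS, chr19:34550444-34550476, + strand): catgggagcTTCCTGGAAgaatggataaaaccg
Gbp3, Irgm1 and Bst2 each held 2 overlapping ISRE cores, and Ifit3 held 2 that were apart.

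Of the 5 nucleic acid sensor genes 3 had a higher mean and 2 a lower one, and none passed the test. Ddx58, which encodes the RNA sensor RIG-I, averaged 9.18 ± 0.01 (SD) after deletion and 9.20 ± 0.09 (SD) in controls, a difference of -0.02 ± 0.06. Ifih1, the gene of the RNA sensor MDA5, differed by -0.04 ± 0.09, and Dhx58, which modulates both sensors, by 0.06 ± 0.09. Zbp1, a sensor of Z-form nucleic acid, differed by 0.11 ± 0.07. Eif2ak2 encodes PKR, the kinase that halts translation when it binds double-stranded RNA. It differed by 0.25 ± 0.19, and this rested on mdx IKKβf/f replicate 2, the lowest heart at 6.04 where the other 6 lay between 6.79 and 6.89. Without that heart the difference was -0.01. Another Dhx58 probe set (mean 5.75) gave -0.22 ± 0.07 with groups that did not overlap (unadjusted p = 0.013), opposite in sign to the chosen probe set.

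All 5 transcription factor genes had a lower mean in mdx HRTΔIKKβ hearts, and none passed the test. Their median was -0.13, which became -0.04 with 3 of 5 lower without mdx IKKβf/f replicate 1, and -0.06 with 4 of 5 lower without mdx HRTΔIKKβ replicate 1. Irf7, the factor that amplifies type I interferon production, read 6.88, 7.32, 7.29 and 7.34 in mdx HRTΔIKKβ replicates 1 to 4 and 7.73, 7.27 and 7.14 in mdx IKKβf/f replicates 1 to 3. The 5 remaining hearts lay close together, and the lowest and the highest heart were the first replicate of each genotype. The difference was -0.17 ± 0.17, and 0.004 without mdx IKKβf/f replicate 1. Irf9, the DNA-binding part of the type I complex, read 7.95, 8.13, 8.23 and 8.23 in mdx HRTΔIKKβ hearts and 8.45, 8.23 and 8.13 in mdx IKKβf/f hearts (-0.13 ± 0.10). Its partner Stat2 read 7.27, 7.39, 7.36 and 7.38 against 7.39, 7.38 and 7.41 (-0.04 ± 0.05). The ranges of both groups overlapped in Irf9 and Stat2. Irf1, which interferon-γ induces, differed by -0.14 ± 0.06 (limma, unadjusted p = 0.0687, adjusted p = 0.796), and Irf8, a factor of myeloid cells, by -0.004 ± 0.14.

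Ifit2 had the smallest p of the 37 genes. The Ifit genes encode proteins that bind viral RNA and block its translation. Ifit2 read 8.06, 7.92, 8.30 and 8.24 in mdx HRTΔIKKβ replicates 1 to 4 and 8.99, 8.53 and 8.45 in mdx IKKβf/f replicates 1 to 3. Every mdx HRTΔIKKβ heart was below every control, with 8.30 as the highest value of the first group and 8.45 as the lowest of the second. The difference was -0.53 ± 0.15 (limma, unadjusted p = 0.00807, adjusted p = 0.796). It ran from -0.63 to -0.36 over left-out hearts, the smaller size being without mdx IKKβf/f replicate 1. Its neighbours on the chromosome did not separate the groups. Ifit3 differed by -0.36 ± 0.21 and Ifit1 by -0.12 ± 0.18, and both were highest in mdx IKKβf/f replicate 1 (8.81 and 7.92). Ifi35 differed by 0.02 ± 0.08. Ifi27 differed by 0.27 ± 0.13 (unadjusted p = 0.0718) and was highest in mdx HRTΔIKKβ replicate 2 (11.54). Its other probe set gave 0.23 ± 0.11.

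Cxcl9 showed the largest difference. It encodes a chemokine that interferon-γ induces and that draws T cells through the receptor Cxcr3. Cxcl9 read 7.34, 7.26, 8.10 and 8.10 in mdx HRTΔIKKβ replicates 1 to 4 and 8.96, 8.28 and 8.18 in mdx IKKβf/f replicates 1 to 3. The groups did not overlap, but replicates 3 and 4 of mdx HRTΔIKKβ lay within 0.1 of the lowest control, and replicates 1 and 2 far below. The difference was -0.77 ± 0.28, which is 1.71-fold (limma, unadjusted p = 0.0265, adjusted p = 0.796). Over left-out hearts it ran from -0.92 to -0.53, and without mdx IKKβf/f replicate 1 (-0.53) it was under 1.5-fold. The second Cxcl9 probe set was dimmer and gave -0.17 ± 0.10. Cxcl10, a ligand of the same receptor, differed by -0.02 ± 0.09, with all 7 hearts between 6.29 and 6.64. Its only probe set was dim, with a mean of 6.43 against 6.74 for the median probe set, and RMA compresses differences of dim probe sets.

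**Figure D3:**
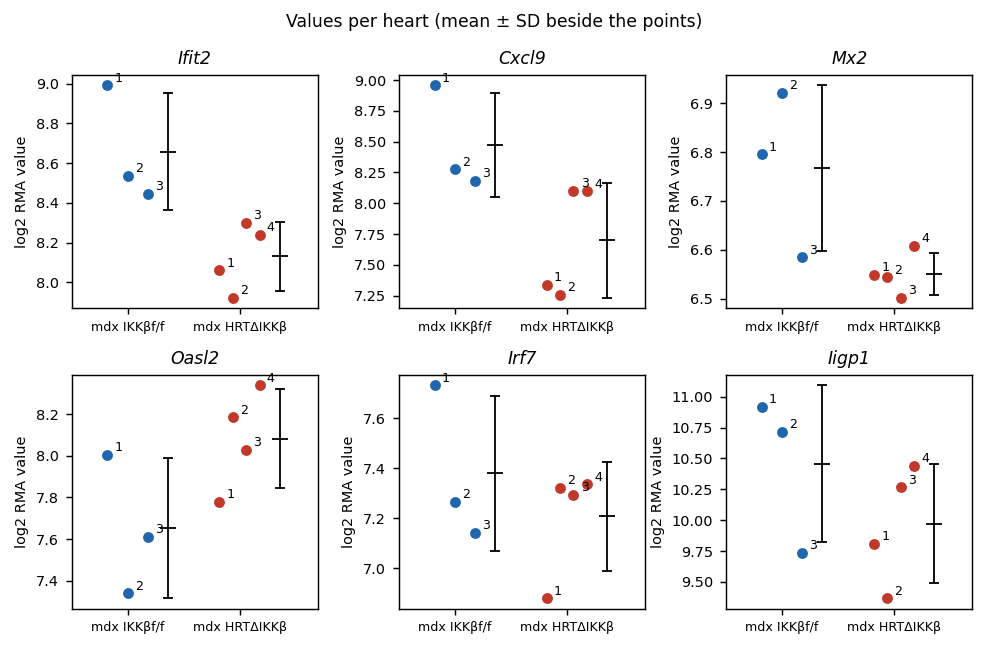
Log2 values (y axis, own scale in each panel) of Ifit2, Cxcl9, Mx2, Oasl2, Irf7 and Iigp1 in control hearts (blue, n = 3) and deleted hearts (red, n = 4), numbered by replicate, with mean ± SD beside them. Ifit2 and Cxcl9 are the panels in which the groups do not overlap.

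The 5 members that encode GTPases induced by interferon-γ all had lower means in mdx HRTΔIKKβ hearts. Such GTPases act on the membranes around intracellular microbes. The median difference was -0.24 over these 5 genes, and none passed even the unadjusted threshold. Without mdx IKKβf/f replicate 1, 3 of the 5 were lower, with a median of -0.14, and without mdx IKKβf/f replicate 3 the median was -0.36. Irgm1 differed by -0.24 ± 0.11 (unadjusted p = 0.0617), Gbp3 by -0.35 ± 0.18, Iigp1 by -0.49 ± 0.34, Igtp by -0.05 ± 0.17 and Gbp2 by -0.03 ± 0.17. Of related genes outside the members, Gbp6 differed by 0.03 ± 0.22, Gbp7 by -0.23 ± 0.15, Irgm2 by -0.07 ± 0.16 and Ifi47 by -0.27 ± 0.31. Without mdx IKKβf/f replicate 1, Irgm2 (0.09) and Ifi47 (0.14) were higher. Iigp1, shown after its values had been seen, varied most among the members. It read 9.81, 9.37, 10.27 and 10.44 in mdx HRTΔIKKβ replicates 1 to 4 and 10.92, 10.72 and 9.74 in mdx IKKβf/f replicates 1 to 3. Control replicate 3 thus lay below 3 of the 4 mdx HRTΔIKKβ hearts. The other Iigp1 probe set gave -0.39 ± 0.30.

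The Oas and Mx genes were split. Oas enzymes make oligoadenylates that switch on RNase L, Oasl proteins are their relatives, and Mx proteins are antiviral GTPases. Oasl2 read 7.78, 8.19, 8.03 and 8.34 in mdx HRTΔIKKβ replicates 1 to 4 and 8.01, 7.34 and 7.61 in mdx IKKβf/f replicates 1 to 3. The groups overlapped, as replicate 1 of mdx HRTΔIKKβ lay below replicate 1 of the controls. The difference was 0.43 ± 0.18 (limma, unadjusted p = 0.0449, adjusted p = 0.796). Leaving out control replicate 2 gave 0.27. Mx2 went the other way, with 6.55, 6.54, 6.50 and 6.61 in mdx HRTΔIKKβ hearts and 6.80, 6.92 and 6.58 in controls. Control replicate 3 lay inside the range of the other group. The difference was -0.22 ± 0.08 (limma, unadjusted p = 0.0314, adjusted p = 0.796). Oas2 (0.18 ± 0.13), Oasl1 (0.17 ± 0.09), Mx1 (0.23 ± 0.12) and Oas3 (-0.05 ± 0.09) did not pass. Without mdx IKKβf/f replicate 2, Mx1 differed by 0.09 and Oasl1 by 0.07. In Mx1 3 hearts shared the value 4.77.

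The remaining effectors moved little between genotypes and much between hearts. Rsad2, the gene of the antiviral enzyme viperin, was named after its values had been seen because it has 3 probe sets. The brightest read 9.66, 10.11, 10.12 and 10.09 in mdx HRTΔIKKβ replicates 1 to 4 and 10.57, 10.02 and 9.89 in mdx IKKβf/f replicates 1 to 3. As with Irf7, both extremes were first replicates. The 3 probe sets gave -0.16 ± 0.18, -0.17 ± 0.23 and -0.20 ± 0.16. Its neighbour Cmpk2, a mitochondrial nucleotide kinase gene, differed by -0.08 ± 0.17. The ADP-ribosyltransferase gene Parp14 (-0.10 ± 0.10) and Xaf1, whose product opposes the apoptosis inhibitor XIAP (-0.10 ± 0.11), were likewise slightly lower on average. Bst2, which encodes the virus-tethering protein tetherin, differed by 0.24 ± 0.13, and by 0.11 without mdx IKKβf/f replicate 2. The exonuclease gene Isg20 (0.24 ± 0.23) and Rtp4 (0.06 ± 0.12) also had higher means. Of the genes that handle the ubiquitin-like protein Isg15 or activate RIG-I, Usp18, which removes Isg15 and restrains the receptor, differed by -0.11 ± 0.17. The ubiquitin ligase gene Trim25 differed by 0.22 ± 0.10 (unadjusted p = 0.0651), and its other probe sets by 0.14 and 0.21. All 9 missed the unadjusted threshold.

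Several probe sets were available for 17 of the 37 genes. Of the 23 further probe sets, 18 had the same sign as the chosen one and 5 the other, and 1 of them (Dhx58) reached an unadjusted p of 0.05. Summarizing each gene by the mean of its probe sets left the counts at 3 lower and 1 higher, but brought Cxcl9 to -0.47, which is under 1.5-fold. The chosen probe set of 4 members (Ifi35, Ifi27, Trim25 and Gbp2) belongs to types that can bind more than 1 transcript. Of the members, 8 were dimmer on average than the median probe set, among them Mx2 and Cxcl10.

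The next question was whether the genes around the members differed. Among 93 further genes of the pathway, 49 had a higher and 44 a lower mean, with a median of 0.005. At an unadjusted p of 0.05, 8 were higher, against 3.25% of all genes, and 6 lower, against 2.95%. None passed after adjustment (limma, smallest adjusted p = 0.593). The groups did not overlap in 4 higher and 4 lower genes, against 3.05% and 2.62% of all genes. Of the 10 interferon genes measured, 9 lay below the median probe set and Ifnz, at a mean of 6.95, above it. Ifng, the gene of interferon-γ, read 4.51, 4.47, 4.32 and 4.50 in mdx HRTΔIKKβ replicates 1 to 4 and 4.62, 4.72 and 4.54 in mdx IKKβf/f replicates 1 to 3. The groups did not overlap, at a level that 13.1% of probe sets fell below (-0.17 ± 0.07, unadjusted p = 0.0385). Ifnb1 differed by -0.15 ± 0.09.

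Among the 6 receptor and 3 kinase genes measured, Il10rb and Jak1 reached the unadjusted threshold, both lower, against 2.95% of all genes. The type I receptor genes Ifnar1 and Ifnar2 differed by 0.04 ± 0.07 and 0.07 ± 0.06. The interferon-γ receptor genes Ifngr1 and Ifngr2 differed by 0.15 ± 0.08 and -0.28 ± 0.14, and the interferon-λ receptor gene Ifnlr1 by 0.10 ± 0.08. Il10rb, which serves the interferon-λ and interleukin 10 receptors, was lower in all 4 mdx HRTΔIKKβ hearts (11.32 to 11.80) than in any control (11.83 to 11.94), with a difference of -0.34 ± 0.13 (unadjusted p = 0.0321). Jak1, the kinase common to the interferon receptors, differed by -0.32 ± 0.13 (unadjusted p = 0.0371), while Jak2 (0.03 ± 0.06) and Tyk2 (-0.05 ± 0.06) did not reach that threshold. Among 9 negative regulators, Socs3, an inhibitor of cytokine signalling that STAT factors induce, differed by 1.66 ± 0.38 (unadjusted p = 0.00259, adjusted p = 0.79). It read 9.47, 9.05, 9.48 and 8.03 in mdx HRTΔIKKβ hearts and 7.57, 6.81 and 7.65 in controls, and the groups did not overlap. These values come from 1 of 3 Socs3 probe sets, of a type that can bind more than 1 transcript. The other Socs3 probe sets are not given here. The phosphatase gene Ptpn1 differed by 0.28 ± 0.10 (unadjusted p = 0.0246), and Socs1 by 0.07 ± 0.12. Of 15 genes for upstream sensing, 12 had a higher mean, as did 8683 of all 18193 genes, and their median difference was 0.05. Myd88 (0.28 ± 0.11) and Ifi204 (0.32 ± 0.12) reached the unadjusted threshold, like Socs3 and Ptpn1, where 3.25% of all genes were higher.

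**Figure D4:**
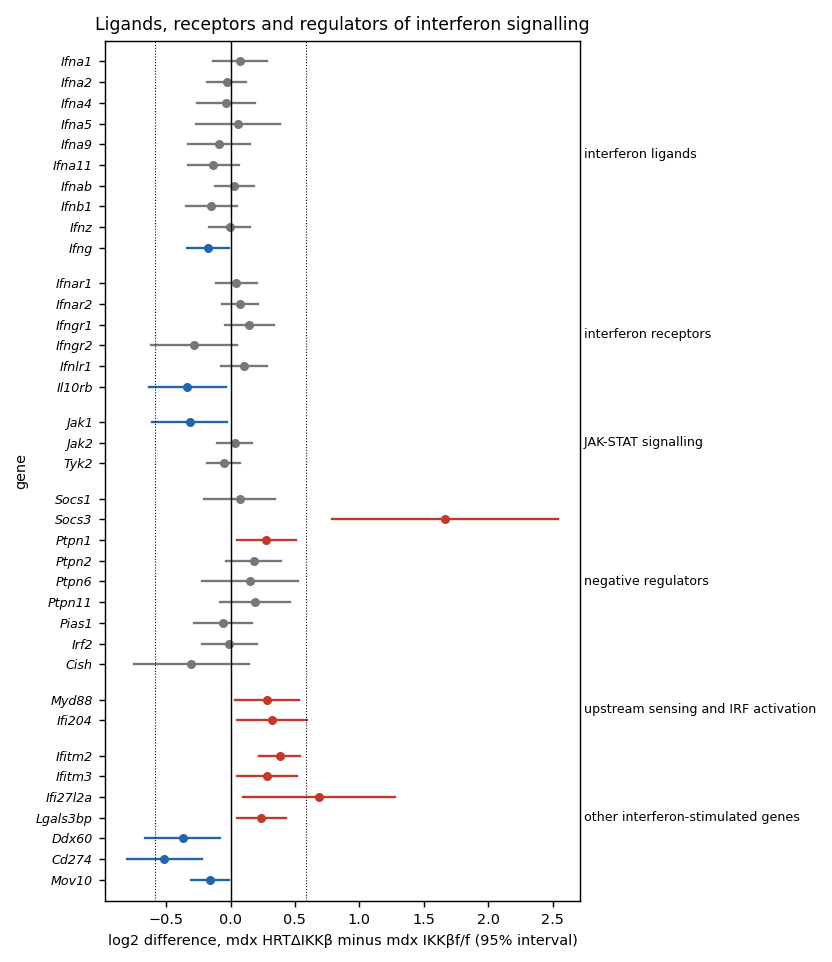
Difference in mean log2 value, deleted minus control hearts (x axis), with 95% intervals from limma, for all measured interferon ligands, receptors, kinases and negative regulators, and for the genes of the other pathway groups at an unadjusted p of 0.05 (y axis). Red is higher and blue lower at that threshold, dotted lines mark 1.5-fold, and Socs3 (1.66) lies farthest from 0.

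A wider set of 50 interferon-stimulated genes outside the 37 was also split, with 23 higher and 27 lower means and a median of -0.01. At an unadjusted p of 0.05, 4 were higher, against 3.25% of all genes, and 3 lower, against 2.95%. The higher ones included Ifitm2 and Ifitm3, whose products block virus entry at membranes, and the lower ones Cd274. Ifitm2 read 11.82, 11.78, 11.60 and 11.72 in mdx HRTΔIKKβ hearts and 11.38, 11.28 and 11.39 in controls (0.38 ± 0.07, limma, unadjusted p = 0.000645, adjusted p = 0.593). Ifitm3 differed by 0.28 ± 0.10, Ifi27l2a by 0.69 ± 0.25 and Lgals3bp by 0.24 ± 0.08. Cd274 encodes PD-L1, the ligand that restrains T cells. It read 6.97, 7.09, 6.88 and 6.96 in mdx HRTΔIKKβ hearts and 7.81, 7.32 and 7.34 in controls (-0.51 ± 0.12, limma, unadjusted p = 0.00379, adjusted p = 0.79). The groups did not overlap in Ifitm2 and Tor3a, both higher (3.05% of all genes), nor in Cd274 and Ddx60, both lower (2.62%). The helicase genes Ddx60 (-0.37 ± 0.12) and Mov10 (-0.16 ± 0.06) were the others that were lower at the unadjusted threshold.

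Leukocytes express many of these genes, so marker lists were set beside the members. Macrophage and monocyte markers had higher means in mdx HRTΔIKKβ hearts for 12 of 13 genes, with scores from -0.18 to 0.30 against -0.33 to -0.02 in controls. At an unadjusted p of 0.05, 4 of the 13 were higher (3.25% of all genes) and 1 lower (2.95%). The lower one was Ccr2 (-0.41 ± 0.14, limma, unadjusted p = 0.0205), which was highest in mdx IKKβf/f replicate 1 (8.88). T and NK cell markers were higher on average for 11 of 13, with scores from -0.11 to 0.61 against -0.17 to -0.10. B and plasma cell markers were higher on average for 8 of 8, by a median of 1.12, with scores from -0.31 to 2.08 against -1.23 to -0.21. Of them 3 reached an unadjusted p of 0.05, where 3.25% of all genes were higher. The immunoglobulin gene Ighm was among the 3, with a difference of 3.25 ± 0.71. Conventional dendritic cell markers were higher for 3 of 7, with scores from -0.15 to 0.10 against -0.04 to 0.03. Plasmacytoid dendritic cells are a major source of type I interferon. Their markers were higher for 5 of 7, with scores from -0.04 to 0.28 against -0.13 to -0.04, and Bst2 and Irf8 stand in that list as well as among the members. The score of 0.28, in mdx HRTΔIKKβ replicate 1, owed much to Ccr9, which read 6.45 there and 4.70 to 5.15 elsewhere. That heart was also alone the highest in 8 of 13 T and NK cell markers, and the cell source of its Ccr9 was not tested. Siglech read 7.33 there and at most 7.13 elsewhere. mdx HRTΔIKKβ replicate 1 had the highest macrophage, T cell and plasmacytoid scores (0.30, 0.61 and 0.28) and the lowest for the interferon-stimulated genes (-0.14). Without it 18 of the 37 members had a higher mean and the median difference was -0.02. mdx IKKβf/f replicate 1, highest for the members, was the highest for skeletal muscle (3.48) and the second highest for neutrophils (2.30). The part of these differences in cell content in the values of the members was not tested.

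**Figure D5:**
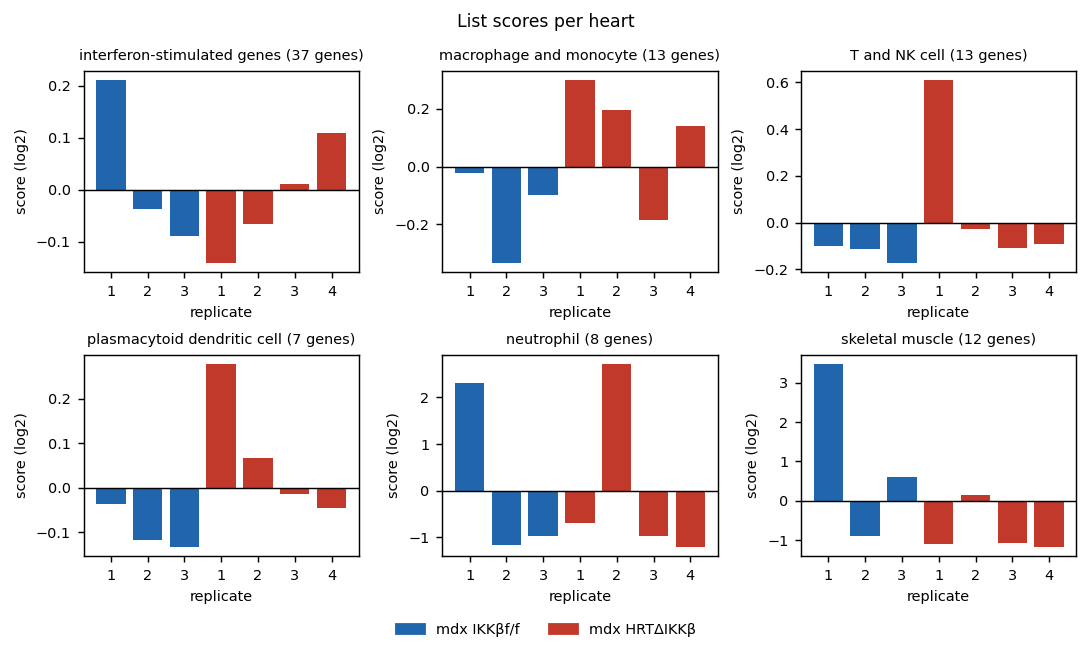
Score per heart (y axis, log2, own scale in each panel) of the interferon-stimulated genes and of 5 marker lists, for control hearts (blue, n = 3) and deleted hearts (red, n = 4), by replicate (x axis). The interferon score is highest in mdx IKKβf/f replicate 1 (0.21) and lowest in mdx HRTΔIKKβ replicate 1 (-0.14).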

How the data were processed

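Whole hearts of 7 mdx mice, 4 mdx HRTΔIKKβ and 3 mdx IKKβf/f, were each hybridized to 1 array. The authors deposited log2 values per probe set, computed by RMA (background correction, quantile normalization, summary per probe set). Per the labels and methods, Partek and Affymetrix Expression Console were both run, with no versions and no statement of which made the table. Quantile normalization removes a global shift in RNA amount, and RMA compresses differences of dim probe sets. Its summary gave 2 or more hearts the same value (equal to 6 decimals) in 48.7% of probe sets and in 11 members. Arrays give no depth, so the number of hearts limits the precision.

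Genes were named through the platform annotation. Of 45037 probe sets, 34945 had 1 symbol, 932 several and 9160 none, and only the first kind was used. Groups were compared over all probe sets with limma 3.58.1 in R 4.3.3 (lmFit and eBayes, two-sided, Benjamini-Hochberg adjustment, no filter). No set test was run and no p is given for the list or its score. Background shares are over 18193 genes with 1 probe set each. A fold of 1.5 is 0.585 on the log2 scale. The study calls its mice littermates, and nothing pairs hearts by replicate number. The members, roles and other lists were chosen with earlier results of these data known. Given heart by heart, by rule, were members at an unadjusted p of 0.05, 1.5-fold different or with groups apart, plus Irf7, Irf9 and Stat2. The fit was tested on simulated data. Alternatives were left-out hearts, the replicate block, other normalizations, filters, probe set choices and variance models, and the methods' t-test.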

Additional observations from a re-analysis of the deposited data

Results flagged for a closer look

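Among mdx HRTΔIKKβ hearts, 6 of 38 results (37 genes and their score) held a heart whose gap to the next, relative to the range of the 4 hearts, passed Dixon's 95% critical value. Chance gives this in about 1 in 20 groups of untied normal values, but RMA left ties in many probe sets, and 10.9% of all genes met the same criterion. Irf7 (6.88) and Rsad2 (9.66) stood apart by a low value in replicate 1, the heart with the high T cell markers. Gbp2 stood apart by a high value in replicate 4 (10.03). Ddx58 (9.17 in replicate 2), Dhx58 (5.91 in replicate 4) and Eif2ak2 (6.89 in replicate 3) stood apart where the other 3 hearts were nearly or exactly equal. No explanation was tested.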

How the results depend on the processing

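No member passed an adjusted p of 0.05 under any alternative run, with 0.583 as the smallest adjusted p. The sign held under every alternative that tested the gene for 21 of 37 genes, among them Ifit2, Cxcl9, Mx2 and Oasl2. Mx2 was too dim to be tested in the run without dim probe sets. Over left-out hearts the count of members lower at an unadjusted p of 0.05 ran from 1 to 6, the count higher from 0 to 3, and the count with a higher mean from 11 to 23. The highest count of lower members came with deleted heart 4 or control heart 3 left out. The methods' t-test gave 1 lower and 0 higher, array weights gave 3 higher, and without dim probe sets 8 members had a higher mean, with fewer members tested. Same-numbered hearts did not deviate together (correlations -0.075, -0.377 and -0.036), and with the replicate block, which makes no use of the unmatched deleted heart 4, 2 members were higher and 4 lower, with a median of -0.06.

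Differences that turned sign with a heart left out were those of Ifih1 (-0.0967 to 0.0346), Ddx58 (-0.0582 to 0.033), Dhx58 (-0.0377 to 0.141), Eif2ak2 (-0.0108 to 0.401), Irf7 (-0.291 to 0.00403), Irf8 (-0.102 to 0.0871), Ifit1 (-0.294 to 0.0872), Ifi35 (-0.0282 to 0.079), Usp18 (-0.216 to 0.0213), Oas3 (-0.111 to 0.0213), Rsad2 (-0.296 to 0.046), Cmpk2 (-0.184 to 0.0564), Rtp4 (-0.0545 to 0.169), Gbp2 (-0.183 to 0.0584), Igtp (-0.237 to 0.0506) and Cxcl10 (-0.0911 to 0.0237). In 12 of these 16, leaving out mdx IKKβf/f replicate 1 was enough. Other turns were Gbp2 with array weights (0.0602), Dhx58 (-0.0468) and Irf8 (0.0508) with the mean of a gene's probe sets, Ifi35 (-0.0222) and Cxcl10 (0.0159) with the replicate block, and Ifi35 (-0.0161) with a second quantile normalization. The cause of these turns was not tested.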
